A study of Glycine max with 18 samples.

Results

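The GASA genes (gibberellic acid-stimulated in Arabidopsis) encode small secreted proteins rich in cysteine, and 6 soybean members are described here: GASA6, GASA9, GASA14, GASA27, GASA29 and GASA33. These 6 are a part of the family chosen with earlier results of these data known. The array has 10 other GASA genes. Probe sets of the 6 were found by symbol or synonym in the probe table of the Affymetrix Soybean Genome Array. It assigns 9 probe sets to these 6 genes, of 37593 soybean probe sets and 6029 genes with exactly 1 symbol. All 9 probe sets passed the filter on dim signals. GASA14 has 3 probe sets and GASA27 has 2, and each gene is read from its brightest one. These are Gma.1379.2.A1_at for GASA6, Gma.3433.1.S1_at for GASA9, GmaAffx.90343.1.S1_s_at for GASA14, Gma.5294.1.S1_at for GASA27, Gma.18082.1.S1_at for GASA29 and Gma.4565.1.S1_s_at for GASA33. The suffix _s_at, carried by those of GASA14 and GASA33, marks possible binding of related transcripts.

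The arrays hold seeds of the soybean cultivar Asgrow A3237 that were 2.5 to 3.0 mm long and contained embryos at the cotyledon stage. Plants were kept at 22 °C under 16 h of light and 8 h of dark, with no mutant or treatment. Compartments were cut by laser from 8 µm paraffin sections of fixed seeds, and whole seeds were ground, with RNA isolated by another reagent. The groups, with 2 arrays each, were embryo proper, suspensor (the stalk of the embryo), endosperm, endothelium (the innermost layer of the seed coat), inner integument, outer integument, epidermis, hilum (the attachment scar) and whole seed. The labels do not say how many plants or seeds stand behind an array or that arrays are separate plants, so p-values measure only the spread between these samples, which may be technical.

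Gibberellins are growth hormones whose level in a tissue is set by synthesis, in which GA 20-oxidases act late, and by inactivation through GA 2-oxidases. The hormone acts by removing DELLA proteins, repressors of growth such as those of the GAI type. GAST1, a tomato gene of the GASA family, was found through its response to gibberellin. Members of the family are known in Arabidopsis for roles in cell division and elongation, flowering and seeds, and in potato as the antimicrobial snakins. Roles of the single soybean members are not given in the tables used here.

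Between 56.7% and 67.5% of soybean probe sets reached a signal of 100, depending on the array. As a measure of background, the 95th percentile of 23394 probe sets for other organisms was taken on each array, and it ran from 105.9 to 216. All 3 suspensor markers were highest in suspensor, but they were picked with earlier results of these data known, so this is no check. Of 5 seed coat markers 4 were highest in a seed coat compartment. Of 4 matched embryo markers 2, KTI3 and CAB3, were highest in embryo proper. The others, GY1 and CG-1, had group means of at most 133 and 86.1, under the background percentile in every group. The 3 matched genes of proanthocyanidin synthesis, taken as endothelium markers, were highest in epidermis or hilum. No endosperm marker was available. In such samples a lower share of cells that express a gene and less RNA per cell cannot be told apart.

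Each gene had its own distribution, and the endosperm was low for all of them. GASA6 and GASA33 were high in epidermis and hilum, GASA14 in hilum and embryo proper, and GASA9 in endothelium and inner integument. GASA27 was high throughout the seed coat and GASA29 in outer integument and suspensor. The highest compartment exceeded the lowest by at least 278-fold for GASA6, at least 161-fold for GASA14, 135-fold for GASA33, 49.4-fold for GASA9, 44.9-fold for GASA27 and 11.3-fold for GASA29. Signals of different probe sets cannot be set against each other, so these ratios hold within a gene. Where neither array of a group was above its background percentile, here endosperm for GASA6 and GASA14, signals under that percentile were raised to it and the fold is given as at least that size. Differences on the log2 scale are those of the fit, in which signals under a floor of 50 were set to 50.

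**Figure D1:**
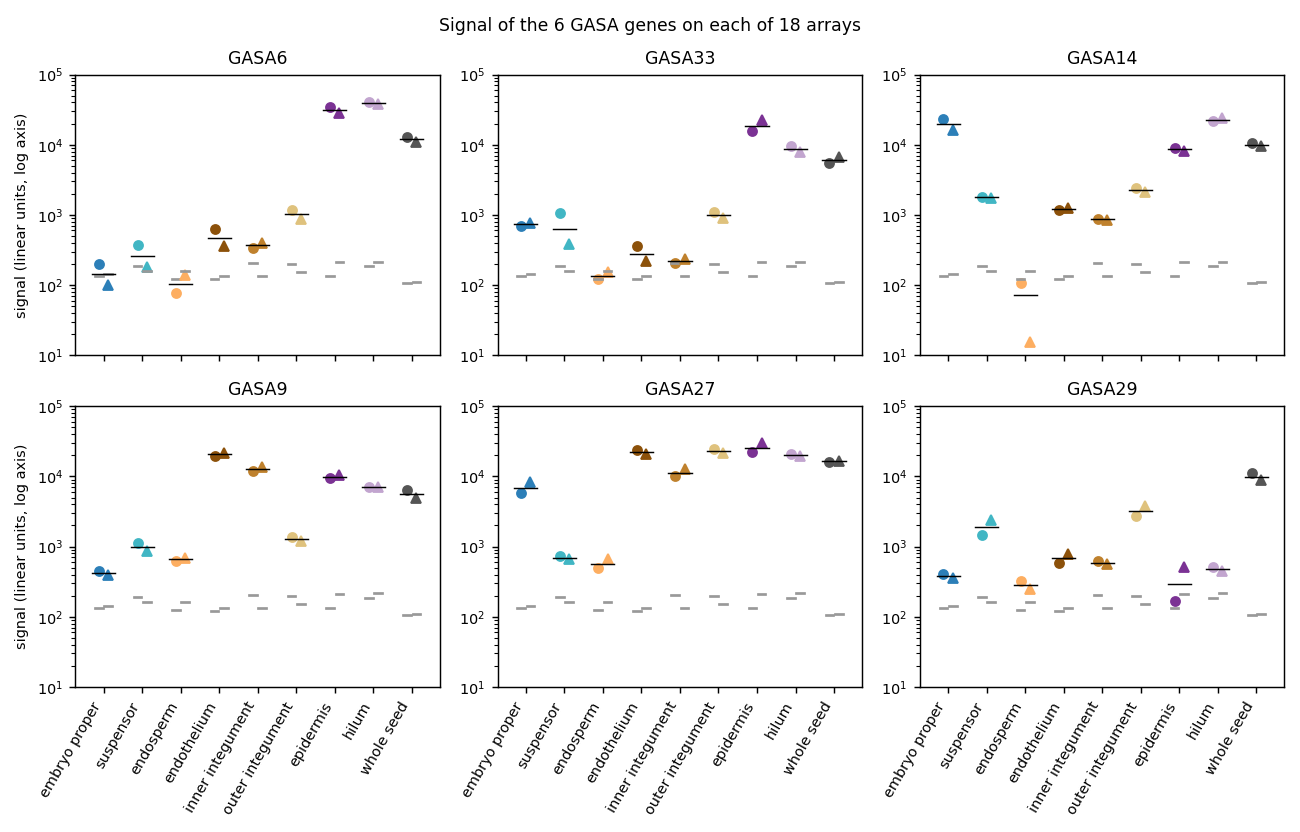
Signal of each GASA gene (log axis, linear units of the deposited table) by group. Circles are array 1, triangles array 2, black lines the geometric means and grey ticks the 95th percentile of probe sets for other organisms on the same array. The lowest of the 4 epidermis and hilum arrays of GASA6 is at 28415, above all other captured arrays, and GASA29 is highest in whole seed.

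GASA6 was concentrated in the epidermis and the hilum. Hilum arrays gave 40364 and 37763 for this gene, and epidermis arrays 34776 and 28415. These 2 compartments held 96.7% of its signal summed over the 8 compartments. Each compartment counts equally in such sums, whatever its size or RNA content, so these shares are not shares of the transcript in a seed. Outer integument followed at 1165 and 882, endothelium at 628 and 358, inner integument at 335 and 402 and suspensor at 368 and 179.9. Embryo proper had 201 and 100, with 1 array above the background percentile, and endosperm had 76.2 and 138, with both arrays under it.

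The hilum mean was 68.0-fold above the mean of the other 7 compartments (log2 difference 6.09 ± 0.30 SE, limma adjusted p = 2.87e-10) and both hilum arrays lay above all 14 others. Epidermis was 53.0-fold higher than the mean of its other 7 (5.73 ± 0.30, adjusted p = 1.30e-09). Hilum and epidermis did not differ detectably from each other, at 1.24-fold (log2 difference 0.31 ± 0.40, adjusted p = 0.747). Whole seed, at 13006 and 11093, lay between epidermis and outer integument and differed from both (adjusted p = 0.0207 and 8.71e-06). Of all probe sets 18.6% differed between epidermis and whole seed and 19.6% between outer integument and whole seed. None of the neighbours further down the order, from outer integument through endothelium, inner integument, suspensor and embryo proper to endosperm, differed (adjusted p from 0.0634 for outer integument and endothelium to 0.652). Compartments further apart in that order did differ, such as outer integument over suspensor by 3.94-fold (adjusted p = 0.000874, where 28.7% of probe sets differed).

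GASA33 had its maximum in the epidermis, with the hilum next. Epidermis arrays read 15466 and 22159 and hilum arrays 9476 and 7772. Together they held 89.8% of the summed compartment signal. Outer integument gave 1113 and 899, embryo proper 702 and 766, and suspensor 1057 and 385. Endothelium had 362 and 217, inner integument 207 and 234, and endosperm 124 and 151. In endosperm and in inner integument 1 array of 2 was above the background percentile.

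For GASA33 both epidermis arrays lay above the 14 others, 30.0-fold over the mean of the other 7 (log2 difference 4.91 ± 0.29 SE, adjusted p = 3.67e-09). The hilum was 12.5-fold higher than its other 7 (3.64 ± 0.29, adjusted p = 5.74e-08). Epidermis exceeded hilum by 2.16-fold, a difference that did not pass (adjusted p = 0.0916). The next step down that passed was from whole seed (5401 and 6731) to outer integument, 6.03-fold (adjusted p = 0.000138), and below that suspensor exceeded endothelium by 2.28-fold (adjusted p = 0.0313, where 23.5% of probe sets differed). The other neighbours did not pass (adjusted p from 0.206 to 0.790). The suspensor arrays differed from each other by more than any other pair of this gene, and the suspensor difference from the other 7, at -0.64 on the log2 scale (adjusted p = 0.115), was -1.37 without array 1 (adjusted p = 0.00401) and 0.08 without array 2 (adjusted p = 0.860).

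GASA14 had maxima on both sides of the boundary between mother and embryo. Hilum arrays read 21554 and 23871 and embryo proper arrays 23233 and 16316. These compartments held 74.1% of the summed signal and did not differ detectably (1.17-fold, adjusted p = 0.649). Epidermis gave 9109 and 8222, outer integument 2411 and 2126, suspensor 1802 and 1743, endothelium 1190 and 1237, and inner integument 883 and 849.8. In endosperm the signal was 107 and 15.4, under the background percentile on both arrays.

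Both endosperm arrays lay below all 14 others. The endosperm was at least 28.4-fold below its other 7 (log2 difference -5.77 ± 0.21 SE, adjusted p = 1.31e-12), with endosperm array 2 at the floor, and the log2 difference was -6.62 without a floor. It was at least 6.16-fold below inner integument, the next compartment (adjusted p = 1.91e-08, where 31.1% of probe sets differed). Hilum was 12.9-fold above the mean of its other 7 (3.69 ± 0.21, adjusted p = 1.39e-09), embryo proper 10.8-fold (3.44 ± 0.21, adjusted p = 1.48e-09) and epidermis 4.29-fold (2.10 ± 0.21, adjusted p = 1.36e-06). Whole seed, at 10441 and 9585, was lower than embryo proper (adjusted p = 0.0209, where 19.4% of probe sets differed). Outer integument, suspensor, endothelium and inner integument formed a run in which no neighbours differed (adjusted p from 0.188 to 0.395). Compartments further apart in it did differ. Outer integument exceeded endothelium by 1.87-fold (adjusted p = 0.0298, 19.5% of probe sets differed), and suspensor exceeded inner integument by 2.05-fold (adjusted p = 0.00880, 28.9%).

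GASA9 was highest in the endothelium. Its arrays read 19773 and 21780 there and 11932 and 13525 in inner integument, the adjoining layer. Epidermis followed at 9505 and 10330 and hilum at 7096 and 7125. Outer integument, which lies between the inner integument and the epidermis, had 1376 and 1207. Suspensor gave 1134 and 866, endosperm 621 and 694, and embryo proper 452 and 390.

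Endothelium stood 9.12-fold above its other 7 (log2 difference 3.19 ± 0.16 SE, adjusted p = 4.07e-10), with both arrays above all 14 others, and 1.63-fold above inner integument (adjusted p = 0.0350, where 13.1% of probe sets differed). Inner integument was 5.21-fold higher than its other 7 (2.38 ± 0.16, adjusted p = 5.20e-09), epidermis 3.92-fold and hilum 2.68-fold. Embryo proper was 9.46-fold lower than its other 7 (-3.24 ± 0.16, adjusted p = 1.14e-10), with both arrays below all others. It was also 1.56-fold under endosperm, the next compartment (adjusted p = 0.0362, where 22.6% of probe sets differed). Neighbours from inner integument through epidermis and hilum to whole seed did not differ (adjusted p from 0.214 to 0.286), but groups further apart in this run did. Inner integument exceeded hilum by 1.79-fold (adjusted p = 0.00629, 27.1% of probe sets differed) and whole seed by 2.24-fold (adjusted p = 0.000525, 25%). Epidermis exceeded whole seed by 1.75-fold (adjusted p = 0.0129, 18.6%). Whole seed, at 6484 and 4949, was above outer integument (adjusted p = 2.88e-06).

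GASA27 was high in every layer of the seed coat. Epidermis arrays read 22078 and 29868, outer integument arrays 24479 and 21551, endothelium arrays 23805 and 20983, and hilum arrays 21202 and 19655. These 4 compartments did not differ between neighbours (adjusted p from 0.735 to 0.951). Inner integument was lower, at 9980 and 12890, and embryo proper had 5767 and 8216. Suspensor gave 727 and 657 and endosperm 494 and 661, above the background percentile on all 4 arrays.

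The seed coat compartments held 92.6% of the summed GASA27 signal. Inner integument exceeded embryo proper by 1.65-fold (adjusted p = 0.0165, where 30.9% of probe sets differed), and embryo proper exceeded suspensor by 9.96-fold (adjusted p = 4.17e-09). Suspensor was 14.9-fold (log2 difference -3.89 ± 0.17 SE, adjusted p = 9.41e-12) and endosperm 18.5-fold (-4.21 ± 0.17, adjusted p = 2.91e-12) lower than the mean of the other 7, and these 2 compartments did not differ from each other (adjusted p = 0.428).

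GASA29 followed another order and was highest in whole seed. Whole seed arrays read 11136 and 8749, above all 16 captured arrays. Of the compartments, outer integument had 2747 and 3729, and suspensor 1471 and 2398. Endothelium followed at 586 and 793, inner integument at 615 and 558, and hilum at 509 and 449.9. Embryo proper gave 402 and 362, endosperm 320 and 251, and epidermis 168.5 and 507. The 2 epidermis arrays of this gene were further apart than those of any other group.

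Outer integument was 6.07-fold above its other 7 for GASA29 (log2 difference 2.60 ± 0.31 SE, adjusted p = 4.83e-06), with both arrays above the 14 others, and suspensor 3.30-fold (1.72 ± 0.31, adjusted p = 0.000320). These compartments did not differ detectably from each other (1.70-fold, adjusted p = 0.186). Suspensor exceeded endothelium by 2.76-fold (adjusted p = 0.0135), and no neighbours below that differed (adjusted p from 0.630 to 0.977). The epidermis was 2.54-fold lower than its other 7 (adjusted p = 0.00569), but without epidermis array 1 it did not pass (log2 difference -0.55, adjusted p = 0.307), and it was -2.14 without array 2, and -2.19 without array 2 and the other 3 arrays of high background. The lower value in embryo proper (1.87-fold, adjusted p = 0.0414) failed in 14 of 29 alternative settings, and the lower value in endosperm (2.63-fold, adjusted p = 0.00191) failed without endosperm array 2 (adjusted p = 0.0589).

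**Figure D2:**
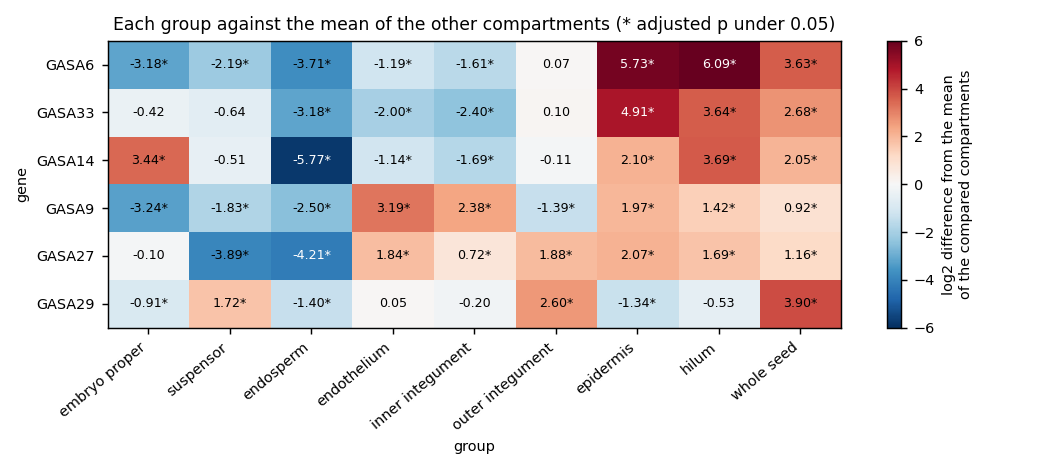
Log2 difference of each group from the mean of the other 7 compartments, or of all 8 for whole seed, for the 6 genes. Red is higher, blue lower and an asterisk marks adjusted p under 0.05. The endosperm column is blue for all 6 genes, from -5.77 for GASA14 to -1.40 for GASA29.

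Taking the genes by compartment, the endosperm was lower for 6 of 6, against 15.4% of the 31961 tested probe sets called lower there. The 6 were chosen with earlier results of these data known, and of the 10 other GASA genes 3 were lower there. The median log2 difference of the 6 genes was -3.45 and that of all tested probe sets -0.10. GASA6 was at least 9.55-fold lower, GASA33 9.09-fold lower with both arrays below all others, and GASA9 5.67-fold lower. The summed signal of the 5 seed coat markers was 5184 in endosperm, against 38929 to 177664 in the 5 seed coat compartments. For GASA6 and GASA14 neither endosperm array was above the background percentile and for GASA33 1 was. The 9 comparisons share arrays and are not independent of each other.

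Epidermis and hilum lay at the other end. In epidermis 5 of the 6 genes were higher (7.9% of tested probe sets) and GASA29 was lower (6.35%), with a median of 2.08 against 0.03 for all probe sets. In hilum 5 of 6 were higher (12%) and 0 lower (9.19%), and GASA29 had a log2 difference of -0.53 that did not pass (adjusted p = 0.250). The hilum median was 2.67 against 0.08. The 3 proanthocyanidin genes on the marker list summed to 76457 in epidermis and 95524 in hilum, against 329 to 1976 in the other 6 compartments. Their part in these counts was not tested.

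The other compartments divided the family. In embryo proper 1 gene, GASA14, was higher (12.3%) and 3 were lower (11.2%), GASA6 by 9.05-fold along with GASA9 and GASA29. In suspensor GASA29 was higher (12.7%), and GASA6 (4.58-fold), GASA9 (3.54-fold) and GASA27 were lower (14.3%). In endothelium GASA9 and GASA27 (3.58-fold) were higher (8.76%), and GASA6 (2.28-fold), GASA14 (2.20-fold) and GASA33 (log2 difference -2.00) were lower (8.8%). The GASA6 call there was lost without endothelium array 2 (adjusted p = 0.270) and that of GASA14 without the floor (adjusted p = 0.0942). In inner integument GASA9 and GASA27 (1.65-fold) were higher (13.9%), and GASA6 (3.05-fold), GASA14 (3.24-fold) and GASA33 (5.28-fold) were lower (13.9%). The GASA27 call there was lost without inner integument array 2 (adjusted p = 0.112), and that of GASA6 without the 4 arrays of high background (adjusted p = 0.0648). In outer integument GASA27 (3.69-fold) and GASA29 were higher (11.7%), and GASA9 (2.63-fold) was lower (10.4%). Median log2 differences in these 5 compartments ran from -1.23 in suspensor to 0.08 in outer integument.

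Whole seed was above the mean of the 8 compartments for 6 of 6 genes, against 11.8% of probe sets called higher and 7.56% lower. The GASA9 call, 1.89-fold, was lost without whole seed array 1 (adjusted p = 0.0504). That mean is taken over log2 values and lies low for a gene that is high in few compartments. Set against the arithmetic mean of the 8 compartments, whole seed was 0.848 of it for GASA9, 1.17 for GASA27, 1.32 for GASA6, 1.40 for GASA14 and 1.59 for GASA33. For these 5 genes the whole seed signal lay inside the range of the compartments. For GASA29 it was 10.03 times the arithmetic mean and 3.08-fold above outer integument, its highest compartment (adjusted p = 0.00906). The whole seed differs from the captures in RNA isolation as well as in content, and these cannot be told apart.

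**Figure D3:**
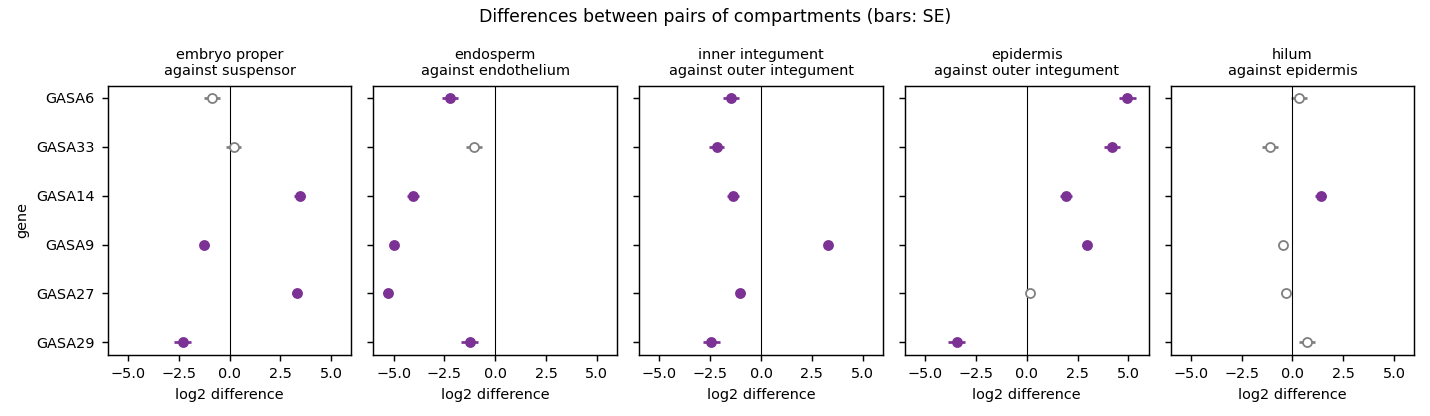
Log2 difference between the members of 5 pairs of compartments (first minus second) for each GASA gene, with the SE as bars. Filled points passed at an adjusted p under 0.05. GASA9 alone is on the higher side in inner against outer integument, and GASA29 alone on the lower side in epidermis against outer integument.

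Adjoining compartments were then set against each other, in 5 pairs taken up after values had been seen. Inner against outer integument differed for 6 of 6 genes, where 20.6% of all probe sets differed. GASA9 was 9.86-fold higher in inner integument (log2 difference 3.30 ± 0.21 SE, adjusted p = 1.03e-08). The other 5 were lower there, GASA29 by 5.47-fold, GASA33 by 4.55-fold, GASA6 by 2.77-fold, GASA14 by 2.61-fold and GASA27 by 2.03-fold (log2 difference -1.02, and -1.84 with its other probe set). Without the 4 arrays of high background (array 2 of endosperm and of epidermis, array 1 of inner and of outer integument), 1 array was left for each of these layers, assumed to vary like the other groups, and 3 of the 6 genes passed. The GASA6 call was also lost without inner integument array 1 (log2 difference -1.34) and without outer integument array 1 (-1.27). The GASA14 call was lost without the floor (adjusted p = 0.0794), with the log2 difference unchanged at -1.39 and an SE of 0.52 against 0.28.

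Epidermis against outer integument differed for 5 genes (14% of all probe sets). GASA6 was 31.0-fold (4.95 ± 0.40, adjusted p = 8.76e-08), GASA33 18.5-fold, GASA9 7.69-fold and GASA14 3.82-fold higher in epidermis, and GASA29 10.9-fold lower (-3.45 ± 0.41, adjusted p = 7.47e-06). The GASA29 difference was -2.66 without epidermis array 1, -4.25 without epidermis array 2 and -4.47 without the 4 arrays of high background. GASA27 differed by 1.12-fold (adjusted p = 0.735). Hilum and epidermis were the closest pair (8.31% of probe sets), with GASA14 as the 1 gene that differed. GASA14 was 2.62-fold higher in hilum (1.39 ± 0.28, adjusted p = 0.00359). Without the floor this call was lost (adjusted p = 0.148), with the log2 difference unchanged and an SE of 0.52. Of its other probe sets, Gma.8347.1.S1_at had means of 962 in hilum and 1035 in epidermis, and GmaAffx.90343.1.S1_at 1523 and 657.

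Endosperm against endothelium, which meet at the inner face of the seed coat, differed for 5 genes, all lower in endosperm (23.8% of probe sets differed in either direction). GASA27 was 39.1-fold (-5.29 ± 0.22, adjusted p = 1.03e-11), GASA9 31.6-fold (-4.98 ± 0.21, adjusted p = 1.72e-11), GASA14 at least 8.63-fold and GASA6 at least 3.37-fold lower. The log2 difference of GASA27 was -6.21 with its other probe set, and that of GASA14, -4.05, was -4.90 without a floor. The GASA29 difference (2.41-fold, adjusted p = 0.0306) failed in 9 of 29 alternative settings, with adjusted p up to 0.188. GASA33 was 2.05-fold lower in endosperm without passing (adjusted p = 0.0606), and it passed in 4 alternative settings.

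Between the parts of the embryo, 4 genes differed in embryo proper against suspensor (24.6% of probe sets). GASA14 (log2 difference 3.46 ± 0.28, adjusted p = 4.42e-08) and GASA27 (3.32 ± 0.22, adjusted p = 4.17e-09) were higher in embryo proper. GASA29 was 4.93-fold (-2.30 ± 0.41, adjusted p = 0.000336) and GASA9 2.36-fold (-1.24 ± 0.21, adjusted p = 0.000243) lower there. GASA6 and GASA33 had low signals in both and did not pass.

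**Figure D4:**
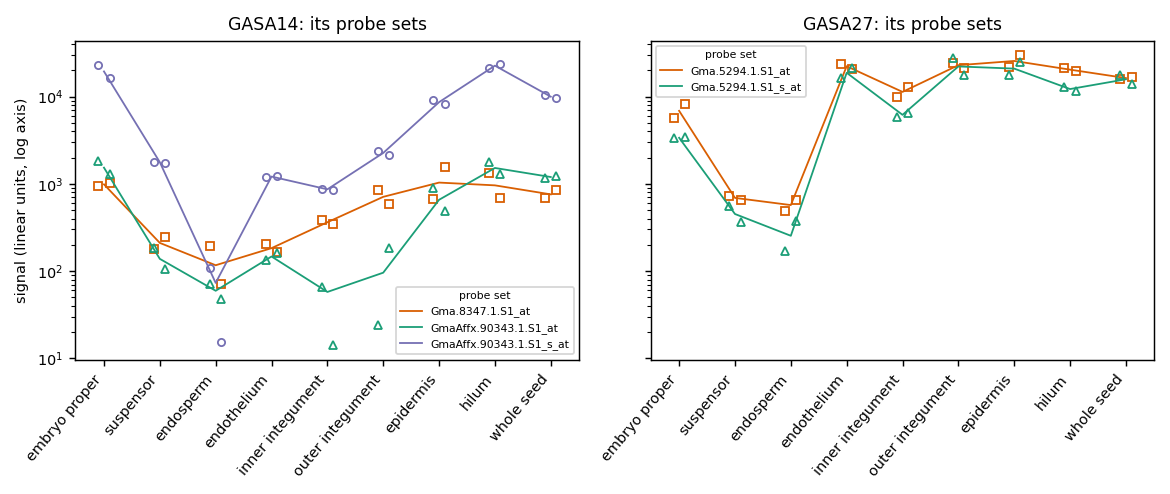
Signal (log axis) of each probe set of GASA14 and GASA27 by group, with open symbols for the 2 arrays and lines through the geometric means. The GASA14 probe sets are all low in endosperm and differ in the integuments, and the GASA27 probe sets run in parallel.

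The other probe sets gave a check on GASA14 and GASA27. For GASA27 the group means of its 2 probe sets had a Pearson correlation of 0.991 over the 9 groups, and the second was 28.4-fold lower in endosperm and 14.7-fold lower in suspensor. Its inner integument difference (0.44, adjusted p = 0.206) did not pass, unlike that of the first, and its outer integument difference was 2.54 on the log2 scale, against 1.88 for the first. The 3 probe sets of GASA14 correlated at 0.764 to 0.896. All 3 were higher in embryo proper, epidermis and hilum and lower in endosperm.

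They disagreed in other compartments, and in hilum against epidermis. GmaAffx.90343.1.S1_at read 24.4 and 184 in outer integument (2.82-fold lower than its other 7, adjusted p = 0.0137), while Gma.8347.1.S1_at read 852 and 592 (1.78-fold higher, adjusted p = 0.129), and the probe set used above showed no difference there (adjusted p = 0.758). In inner integument Gma.8347.1.S1_at did not pass (log2 difference -0.27, adjusted p = 0.644), while GmaAffx.90343.1.S1_at (-2.34) and the probe set used above (-1.69) were lower. In suspensor Gma.8347.1.S1_at was lower (-1.17, adjusted p = 0.0258) and the other probe sets did not pass (adjusted p = 0.0838 and 0.126). In endothelium GmaAffx.90343.1.S1_at did not pass (adjusted p = 0.224) and the other probe sets were lower. In embryo proper, where all 3 were higher, GmaAffx.90343.1.S1_at was 8.42-fold and Gma.8347.1.S1_at 2.60-fold higher. The array also has a probe set of the same cluster, GmaAffx.90343.1.A1_at, that the table gives to GASA32, and a probe set of the GASA33 cluster given to GASA21, and how far related transcripts enter the signals of GASA14 and GASA33 was not tested.

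Some pairs of genes had like patterns over the 9 group means. The Pearson correlation of log2 means was 0.933 for GASA6 and GASA33, 0.776 for GASA14 and GASA33, and 0.654 for GASA9 and GASA27. GASA29 correlated with the other 5 at 0.00 to 0.18. These values describe 9 groups that share arrays and scaling.

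Among 923 genes with a name other than a LOC number, the nearest to GASA6 were ANS2 (0.985) and DFR1 (0.976), which encode enzymes of anthocyanidin synthesis, and HSF-01 (0.970), named as a heat shock factor. ANS2 and DFR1 are also among the proanthocyanidin genes of the marker list, read from the same probe sets, so this is not a separate observation. ANS2 read 36823 and 39798 in hilum and 27263 and 36876 in epidermis, with its other compartments at 61.1 to 1086. GASA33 was nearest to HSF-01 (0.965), WRKY29 (0.923), a WRKY transcription factor, and SSH2 (0.921), a Sec14-like protein. SSH2 read 8096 and 7902 in epidermis and 1358 and 1673 in hilum.

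The nearest to GASA9 were HMA8 (0.869), a metal-transporting ATPase, PHR7 (0.851) and the MADS-box factor SEP1 (0.843). GASA14 was nearest to CAB3 (0.917), a chlorophyll-binding protein, GASA32 (0.888) and ADR11 (0.875), named for lower levels after auxin. The GASA32 probe set is of the same cluster as that of GASA14, and how far binding of related transcripts enters this likeness was not tested. For GASA27 the nearest were SSH1 (0.965), the aquaporin PIP2-8 (0.963) and AGL3L (0.932), a MADS-box factor. For GASA29 they were the lipoxygenase genes VLXC (0.866) and LOXB1 (0.846) and AOS1 (0.846), an allene oxide synthase of jasmonate synthesis. VLXC read 1753 and 1861 in outer integument and 1900 and 1653 in whole seed, while its other compartments had 34.2 to 234.5.

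**Figure D5:**
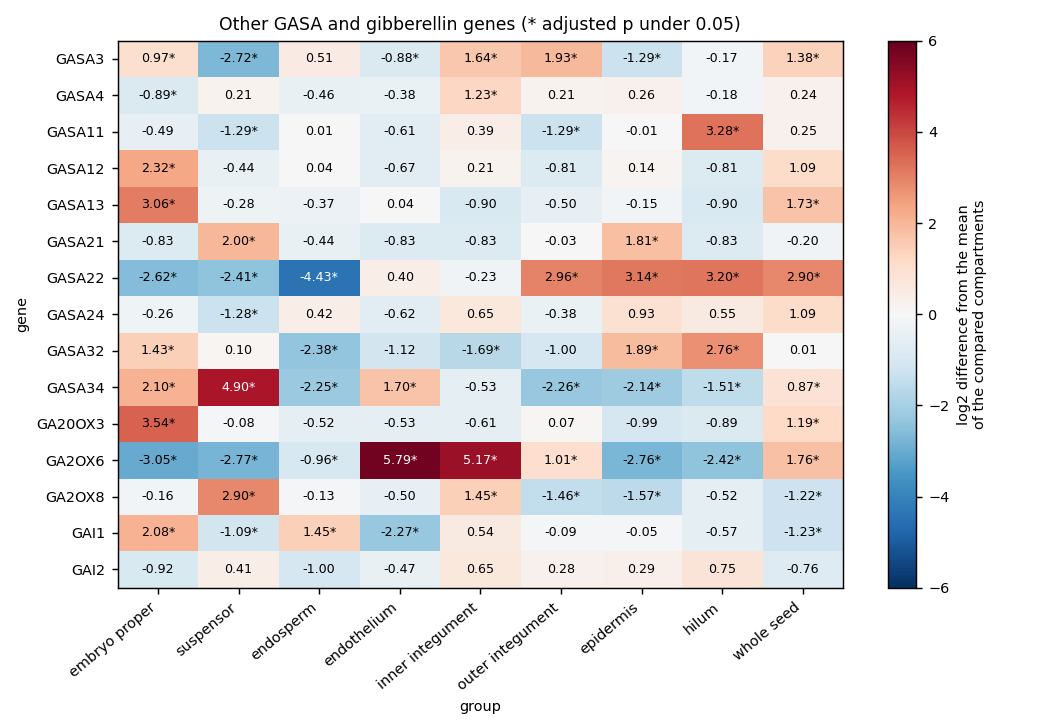
Log2 difference of each group from the mean of the compared compartments for 10 further GASA genes, 3 genes of gibberellin synthesis and inactivation, and 2 of GAI type. An asterisk marks adjusted p under 0.05. GASA34 is highest in suspensor (4.90) and GA2OX6 in endothelium (5.79) and inner integument (5.17).

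The array has 15 further genes of the family and the gibberellin pathway, all of which were tested. Of the 10 other GASA genes, 3 were lower and 0 higher in endosperm, where 15.4% of all tested probe sets were lower and 15.1% higher. In embryo proper 5 were higher (12.3% of all) and 2 lower (11.2%), and in suspensor 2 were higher (12.7%) and 4 lower (14.3%). Epidermis had 3 higher (7.9%) and 2 lower (6.35%), and hilum 3 higher (12%) and 1 lower (9.19%). Endothelium had 1 higher (8.76%) and 1 lower (8.8%), inner integument 2 higher and 1 lower (13.9% each way), and outer integument 2 higher (11.7%) and 2 lower (10.4%). Their median log2 difference in endosperm was -0.41, against -3.45 for the 6 genes above. GASA22 was also low in endosperm, where both arrays were at the floor and it was at least 7.69-fold lower (adjusted p = 1.56e-06). In the outer layers it was at least 7.09-fold higher in hilum, 6.80-fold in epidermis and 5.99-fold in outer integument.

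GASA34 read 14761 and 16887 in suspensor, above all other compartments, 29.9-fold higher (log2 difference 4.90 ± 0.23 SE, adjusted p = 3.02e-11), and was 4.75-fold lower in endosperm. It was also 4.27-fold higher in embryo proper and 3.25-fold in endothelium, and lower in outer integument (4.80-fold), epidermis (4.41-fold) and hilum (2.85-fold). GASA3 was 3.81-fold higher in outer integument and 3.11-fold in inner integument and 6.58-fold lower in suspensor. GASA11 was at least 5.14-fold higher in hilum, with 833 and 761 on its arrays and no array of another compartment above background. GASA32, read from its probe set of the GASA14 cluster, was at least 4.84-fold higher in hilum (1202 and 1217), 2.65-fold in epidermis and 1.93-fold in embryo proper. It was at least 1.98-fold lower in endosperm, where neither array was above background. A second probe set of GASA32 was under background on every array, with 69 and 101.3 in hilum, so these differences rest on the brighter one alone. GASA13 was at least 3.39-fold higher in embryo proper (452 and 677), and GASA4 was 2.34-fold higher in inner integument.

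In the pathway itself, GA20OX3, a GA 20-oxidase of gibberellin synthesis, read 912 and 669 in embryo proper and was at least 4.78-fold higher there (3.54 ± 0.41, adjusted p = 2.95e-06), with the other compartments at 8.9 to 150.3, under background on every array. The inactivating GA2OX6, read from its brighter probe set, had 11752 and 9567 in endothelium and 6367 and 8329 in inner integument, the compartments where GASA9 was highest too. It was at least 30.5-fold higher in endothelium (5.79 ± 0.32, adjusted p = 1.16e-09) and at least 19.9-fold in inner integument (5.17 ± 0.32, adjusted p = 2.18e-09). It was lower in embryo proper (at least 3.00-fold), epidermis (at least 2.38-fold), suspensor (at least 2.32-fold) and hilum (at least 1.96-fold), where no array of this probe set was above background, and 1.95-fold lower in endosperm. In outer integument it was higher, by at least 1.12-fold (2.02-fold as measured, adjusted p = 0.0308). A dimmer probe set of GA2OX6 read 511 and 504 in endothelium, 545 and 722 in inner integument and 484 and 231 in outer integument. In epidermis the dimmer one read 67.2 and 289 and in hilum 200 and 177.1, with epidermis array 2 and hilum array 1 above background. In embryo proper, suspensor and endosperm it was under background on every array.

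GA2OX8, another GA 2-oxidase, was 7.45-fold higher in suspensor (2029 and 1474) and 2.73-fold in inner integument (739 and 699), read from its brighter probe set. A dimmer probe set of this gene read 308 and 203 in suspensor, above background on both arrays. In inner integument the dimmer one read 7 and 7.4, under background on both arrays, so the higher value there rests on the brighter probe set alone. With the brighter probe set, GA2OX8 was lower in epidermis (at least 2.02-fold) and outer integument (at least 1.95-fold), where no array was above background. The DELLA gene GAI1 was 4.23-fold higher in embryo proper (10882 and 8148), where 1 of the 6 GASA genes was higher and 3 were lower. It was 2.73-fold higher in endosperm (5767 and 7138), where all 6 were lower. In endothelium (902 and 505) GAI1 was 4.81-fold lower, and in suspensor 2.13-fold. Links between these pathway genes and the GASA genes were not tested. GAI2 had signals of 39.6 to 237.5 on the captured arrays and passed in no comparison.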

How the data were processed

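Each deposited number is an intensity on a linear scale for 1 probe set, and the authors used GCOS 1.3, per the submitters' processing notes. Its settings and any background step are not given in the sources used here. The 2% trimmed mean was 500.05 to 500.07 on every array, and 12 values were 0. There were no detection calls, and the number of arrays limits precision.

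Here signals under 50 were set to 50 and taken to log2, and tests covered the 31961 soybean probe sets that reached 100 on 2 or more arrays. A mean for each of 9 groups was fitted with lmFit and eBayes (variance trend) of limma 3.58.1 in R 4.3.3. Contrasts set a compartment against the mean of the other 7, whole seed against all 8, and 36 pairs of groups, in which 8.31% to 31.1% of probe sets passed. P-values were Benjamini-Hochberg adjusted over all tested probe sets within a contrast and called under 0.05. Folds are ratios of geometric means. A fold given as "at least" has signals under the array's background percentile raised to it on the dimmer side, a rule added after values were seen. The 5 pairs of adjoining compartments and the shares of summed signal were added after values were seen.

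Genes were named from the array's probe table and RefSeq symbols. Named genes were the 6 members, the 3 nearest named genes by Pearson correlation over 9 group means, and, of the gibberellin list, the 4 with the smallest adjusted p per contrast and any pathway gene that passed. SAT1 (synonym GIP3) was removed as a chance match. Members and lists were chosen with earlier results of these data known. The fit was tested on simulated data.

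Alternatives were floors of 25, 100 and none, no filter or a filter of 300, and no variance trend. Others were captured arrays alone, quantile normalization, a replicate block and each array left out. The probe set with the highest variance was also taken, which changed only that of GASA27, so the other probe sets of GASA14 did not enter. The last left out 4 arrays whose background percentile was over 1.25 times that of the partner (endosperm 2, epidermis 2, inner integument 1, outer integument 1). Replicate numbers did not pair the arrays: over 36 pairs of groups the deviations correlated at -0.07 to 0.08.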

Additional observations from a re-analysis of the deposited data

How the results depend on the processing

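Of 65 called differences, 51 stayed called with the same direction in all 29 alternatives (for whole seed, all but the fit of captured arrays alone), and the other 14 failed in at least 1. In endosperm and epidermis 5 of 6 genes passed in every alternative, the exception being GASA29 each time. With the other probe set for GASA27, 1 gene was higher in inner integument, and GASA27 was -0.082 in epidermis against outer integument. The other probe sets of GASA14 were not among the alternatives. Without a floor, 0 genes differed in hilum against epidermis, where the GASA14 log2 difference was unchanged at 1.39 with an SE of 0.52. GASA14 was then 0.011 in outer integument. Without the 4 high-background arrays, 3 genes differed in inner against outer integument, and the outer integument log2 differences of GASA6 and GASA33 were -0.11 and -0.012. The cause was not tested. With 1 array left out, the genes lower in epidermis numbered 0 to 1, those higher in inner integument 1 to 2 and those that differed in hilum against epidermis 1 to 2. Uncalled log2 differences that changed sign then ran from -0.36 to 0.15 for GASA27 in embryo proper, -0.13 to 0.27 for GASA6 and -0.057 to 0.25 for GASA33 in outer integument, -1.37 to 0.084 for GASA33 in suspensor, and -0.17 to 0.27 for GASA29 in endothelium. Between pairs they were -0.53 to 0.93 for GASA33 in embryo proper against suspensor, -0.084 to 1.51 for GASA29 in hilum against epidermis and -0.057 to 0.38 for GASA27 in epidermis against outer integument. The replicate numbers did not pair the arrays, and with the replicate block 6 genes were lower in endosperm and 5 higher in epidermis, the counts found without it. The number of neighbours in an order that differed ran from 1 to 4 over genes and settings.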
